A study of Mus musculus with 9 samples.

Results

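The collapsin response mediator protein (CRMP) family is encoded in the mouse by 5 genes, Crmp1, Dpysl2, Dpysl3, Dpysl4 and Dpysl5, and its transcripts were examined in mouse embryonic fibroblasts (MEFs) that lack a pair of histone H3 lysine 9 methyltransferases. The members were taken by their Ensembl identifiers, and all 5 were found among the 47937 genes of the count table. Crmp1 was picked because its level differs between the genotypes, so its values are given as a description with no test, whereas the other members entered by name as its relatives. The study sequenced total RNA of 9 libraries, 3 for each of 3 genotypes. WT cells are the parental E1c line, an MEF clone with a conditional Eset1 allele and a tamoxifen-inducible Cre, which the study uses as wild type. S1S2 cells carry CRISPR/Cas9 mutations of Suv39h1 and Suv39h2 in that line. G9Gl cells carry mutations of G9a and Glp, the products of Ehmt2 and Ehmt1, in the same line. The conditional allele is therefore shared by all 9 libraries. Per the study's methods, an inducible Cre construct with a puromycin resistance gene was brought in again after the gene disruption and the lines were kept in puromycin, so the Cre construct and the selection may differ between WT and the mutants and cannot be told apart from the genotype. Per the study's methods a single clone stood for each mutant and was chosen because the targeted proteins were missing on western blots, so genotype and clone cannot be told apart. The study describes the 3 libraries of a genotype as biological replicates of 1 cell line, so p-values measure the spread between these libraries and not between clones.

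CRMP proteins are cytosolic phosphoproteins related in sequence to dihydropyrimidinase, an enzyme of pyrimidine breakdown, but they are not known to share its activity. They assemble into tetramers, bind tubulin and regulators of actin, and relay the signal of semaphorin 3A from neuropilin and plexin receptors to the cytoskeleton of the growth cone. Phosphorylation by kinases such as Cdk5 and Gsk3 releases them from tubulin. Crmp1 and Dpysl5 are best known from the developing nervous system, whereas Dpysl2 and Dpysl3 are also made outside it. H3K9 methylation marks silent chromatin, with Suv39h enzymes acting mostly at pericentric repeats and the G9a/Glp complex mostly in gene-rich regions.

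The members are well separated in sequence, which bears on how their reads were assigned. Between the longest coding sequences of GENCODE M21, Crmp1 was 74.4% identical to Dpysl2, 71.1% to Dpysl3, 70.7% to Dpysl4 and 62.7% to Dpysl5. Dpysl5 was the most distant member, with 61.4% to 63.4% identity to the others. None of the 6961 stretches of 75 bases in the exons of Crmp1, the read length of the study, occurred in the exons of another annotated gene on either strand. The same held for the 4446 stretches of Dpysl2, 6602 of Dpysl3, 6117 of Dpysl4 and 7373 of Dpysl5.

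Crmp1 (ENSMUSG00000029121) lies on the forward strand of chromosome 5, from 37241940 to 37292133 in GRCm38, and RefSeq places start sites at 37242058 and 37245764. Windows of 250 bases before a RefSeq start were available for Crmp1 and Dpysl5. The window before the first Crmp1 start held 30 CpG dinucleotides at 75.6% GC, and 94.1% of the 32851 windows in the RefSeq table held fewer. The window before the second start held 16 CpG dinucleotides at 59.6% GC, above 74.6% of the windows, and that of Dpysl5 held 17 at 62.8% GC, above 76.5%. The median window held 6. The letters GGGCGG, the GC box, were searched on both strands, and matches that overlap on a strand were counted as 1. Counted this way, there were 3 before the first Crmp1 start, 2 before the second and 1 before the Dpysl5 start. Of all windows, 32.7% held at least 1. Each GC box holds a CpG, so these counts overlap. A match of letters is a description and does not show a bound site. The upstream stretches of the gene whose level differed by the largest ratio between genotypes in the family are shown with each CpG in capitals, from the RefSeq windows on GRCm38.p6, forward strand. The first, chr5:37241808-37241939, ends before the annotated gene start. It holds 132 bases and 18 CpG dinucleotides, and the rest of the 250-base window counted above lies within the annotated gene. The second, chr5:37245514-37245763, lies inside the Crmp1 span and ends at the downstream start.
Crmp1 first start, upstream stretch: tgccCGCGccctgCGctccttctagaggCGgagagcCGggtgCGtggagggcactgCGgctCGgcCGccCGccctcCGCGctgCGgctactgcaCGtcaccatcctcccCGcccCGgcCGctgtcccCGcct
Crmp1 second start, upstream stretch: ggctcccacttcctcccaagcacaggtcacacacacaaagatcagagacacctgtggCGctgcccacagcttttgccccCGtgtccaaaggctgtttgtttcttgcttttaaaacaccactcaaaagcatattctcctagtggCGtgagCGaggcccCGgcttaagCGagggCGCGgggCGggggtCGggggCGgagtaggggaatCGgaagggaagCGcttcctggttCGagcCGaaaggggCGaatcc

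The libraries held 21319778 to 32157623 gene counts, and the floor of 3 counts used here for a gene at the limit of detection equals 0.0923 to 0.141 CPM. CPM are counts divided by the library size, which was scaled by the TMM factors of edgeR. Of the 47937 genes, 15540 passed the filter on low counts and were tested, and 3 of the 5 family members were among them. A gene was called at an adjusted p of at most 0.01 over all genes tested, by the quasi-likelihood test of edgeR, and a change of at least 2-fold. Every adjusted p below is from that test. Transcripts of the targeted genes remained in the mutants: Suv39h1 stood at 108 CPM in WT and 41.9 CPM in S1S2 cells, Ehmt1 at 104 and 50.2 CPM in WT and G9Gl cells, and Ehmt2 at 125 and 54.3 CPM. Suv39h2 was at 55.2 CPM in S1S2 and 33.9 CPM in WT cells, so the RNA of this target was not lower in the libraries that carry the S1S2 label.

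Crmp1 had an intermediate level in WT cells, was close to absent in S1S2 cells and was abundant in G9Gl cells. The WT libraries held 73, 72 and 69 Crmp1 counts. Each of the 3 S1S2 libraries held 1 count. The G9Gl libraries held 1612, 1783 and 1915 counts. The 3 genotypes did not overlap, as was the case in each pair of genotypes for 52.8% to 60.8% of all genes tested. In CPM, the level was 2.28 ± 0.0847 in WT, 0.0431 ± 0.00583 in S1S2 and 61.0 ± 3.94 in G9Gl cells (SD, n = 3). With summed counts and library sizes, the level in S1S2 was 0.0187 times that in WT (95% exact interval 0.00382 to 0.0553). In other words it was 53.6 times higher in WT, with an interval of 18.1 to 262 that reflects the 3 S1S2 counts in all. Against WT, the G9Gl level was 26.8 times higher (23.3 to 30.8). Between the mutants the ratio was 1434, with an interval from 490 to 6955. These intervals cover counting error only. Since these are bulk samples, fewer cells that make Crmp1 and less Crmp1 RNA per cell cannot be told apart.

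The fitted log2 fold changes of Crmp1 were -5.60 (SE 0.052) in S1S2 against WT, 4.74 (SE 0.062) in G9Gl against WT and 10.34 (SE 0.069) in G9Gl against S1S2. The values in S1S2 rest on single reads, so the fitted size and its SE depend on the prior count, and an SE from 3 libraries with 1 count each does not show the precision of the level. Among all genes tested, 0.476%, 1.96% and 0.122% had an absolute log2 fold change at least as large in the respective comparisons. Of the 4 members that were not chosen by their level, 2 were tested and 0 were called by edgeR in any comparison. For S1S2 against WT, 9.0% of all genes tested were called, 4.66% higher and 4.34% lower. For G9Gl against WT the share was 10.2%, with 6.77% higher and 3.40% lower. For G9Gl against S1S2 it was 13.1%, with 7.97% higher and 5.08% lower. Crmp1 was chosen for this pattern, so its own place beyond both limits is no test, and it passed the filter on low counts through the genotypes where it is higher. Both comparisons against WT use the same WT libraries.

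**Figure D1:**
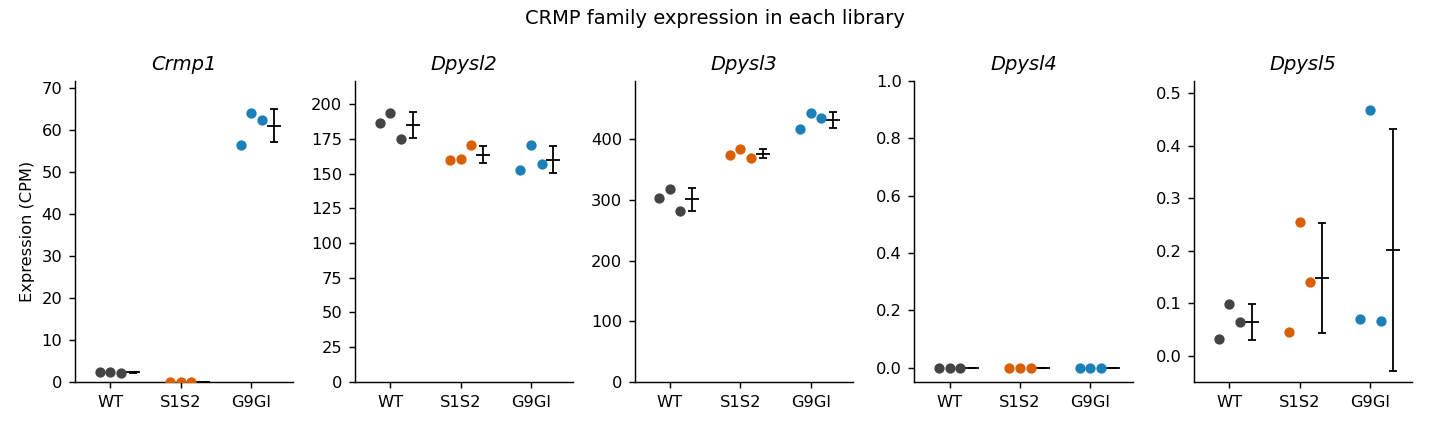
Expression of the 5 members of the CRMP family in each library, in CPM on a linear axis that is scaled separately for each gene, with points for the 3 libraries of each genotype and bars for the mean and SD. Crmp1 lies at 2.28 CPM in WT, near 0 in S1S2 and at 61.0 CPM in G9Gl cells, Dpysl2 and Dpysl3 stay above 150 CPM in every library, and Dpysl4 is at 0 throughout.

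Dpysl2, which encodes CRMP2, the founding member that promotes microtubule assembly in axons, was abundant in all genotypes and slightly lower in both mutants. It lies on the reverse strand of chromosome 14 (66802864 to 66868688). Its level was 187, 193 and 175 CPM in the WT libraries. It was 160, 161 and 171 CPM in S1S2 and 153, 171 and 157 CPM in G9Gl libraries. Every mutant library lay below every WT library, and the 2 mutants overlapped. No overlap with WT was also seen for 56.0% of all genes tested in S1S2 and 52.8% in G9Gl cells. The adjusted p limit alone was met by 37.9% and 35.0%. The log2 fold change was -0.18 in S1S2 (SE 0.052, adjusted p = 0.00818) and -0.21 in G9Gl cells (SE 0.065, adjusted p = 0.00257), differences below the 2-fold limit. Between the mutants it was -0.03 (SE 0.057, adjusted p = 0.630). The median gene of chromosome 14 differed by -0.07 between G9Gl and WT, which leaves -0.13 for Dpysl2. The adjusted p of S1S2 against WT passed 0.01 in 5 of 18 alternative analyses, among them 0.0255 without WT replicate 1, 0.0350 without WT replicate 2, 0.0433 without S1S2 replicate 1 and 0.0355 without S1S2 replicate 2. For G9Gl against WT it passed 0.01 in 4, at 0.0119 without WT replicate 1, 0.0121 without WT replicate 2, 0.0173 without G9Gl replicate 1 and 0.0144 without G9Gl replicate 3.

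Dpysl3, which encodes CRMP4, a member that also bundles actin filaments, was abundant in all genotypes and stood higher in both mutants. The gene lies on the reverse strand of chromosome 18 (43320984 to 43438286). Its WT libraries were at 303, 318 and 281 CPM. The S1S2 libraries were at 374, 384 and 370 CPM, and the G9Gl libraries at 416, 443 and 436 CPM. The 3 genotypes did not overlap, with the order WT, S1S2, G9Gl. The log2 fold change was 0.32 in S1S2 (SE 0.054, adjusted p = 1.72e-05) and 0.52 in G9Gl cells (SE 0.058, adjusted p = 4.96e-08). The direct comparison of G9Gl with S1S2 gave 0.20 (SE 0.031, adjusted p = 0.0015). All 3 differences stayed below the 2-fold limit. Differences of this kind were common: 37.9%, 35.0% and 42.6% of all genes tested met the adjusted p limit alone in the 3 comparisons, and the libraries of both genotypes did not overlap for 56.0%, 52.8% and 60.8%.

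Dpysl4 and Dpysl5 were at the limit of detection. Dpysl4 (chromosome 7, 139086001 to 139102704), which encodes CRMP3, had 0 counts in all 9 libraries, which allows a level of up to 0.0923 to 0.141 CPM, depending on the library. Dpysl5 (chromosome 5, 30711564 to 30799375), which encodes CRMP5, had 1, 3 and 2 counts in WT, 1, 7 and 3 in S1S2, and 2, 13 and 2 in G9Gl libraries. The genotypes overlapped, and G9Gl replicate 2 held 13 of the 17 G9Gl counts. The ratio of counts per library size was 2.44 for S1S2 against WT (95% exact interval 0.827 to 8.04), 3.06 for G9Gl against WT (1.15 to 9.46) and 1.25 for G9Gl against S1S2 (0.553 to 2.96). When no genes were filtered out, Dpysl5 had log2 fold changes of 1.19, 1.56 and 0.36 with adjusted p of 0.360, 0.160 and 0.768. The interval of G9Gl against WT leaves out 1 on counting error alone, but it rests on that replicate, and no difference passed the test at this depth.

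Members were compared with each other only per length, as CPM per kb of the summed exons of each gene. The family sum was 86.7 ± 4.90 CPM per kb in WT, 93.2 ± 1.001 in S1S2 and 109 ± 4.56 in G9Gl cells (SD, n = 3). In WT cells, Dpysl3 (45.5) and Dpysl2 (40.9) made up 52.4% and 47.2% of that sum, and Crmp1 (0.324) made up 0.374%. The order in WT was Dpysl3, Dpysl2, Crmp1 and Dpysl5, with Dpysl4 at 0. The ranges of Dpysl3 (42.5 to 48.1) and Dpysl2 (38.7 to 42.8) overlapped, but Dpysl3 stood above Dpysl2 within every WT library. In S1S2 cells, Dpysl3 reached 61.1%, Dpysl2 38.9% and Crmp1 0.00657%, so that the mean level of Dpysl5 (0.0200) stood above that of Crmp1 (0.00612), although the libraries of these genes overlapped. In G9Gl cells, Crmp1 reached 8.66 CPM per kb and 7.91% of the sum, beside 59.7% for Dpysl3 and 32.4% for Dpysl2. Crmp1 thus remained the third member in G9Gl cells. The choice of length changed these shares: per kb of the longest transcript, Crmp1 made up 0.776% in WT, 0.0135% in S1S2 and 14.9% in G9Gl cells, and the WT libraries of Dpysl3 (51.3 to 58.0) no longer overlapped those of Dpysl2.

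**Figure D2:**
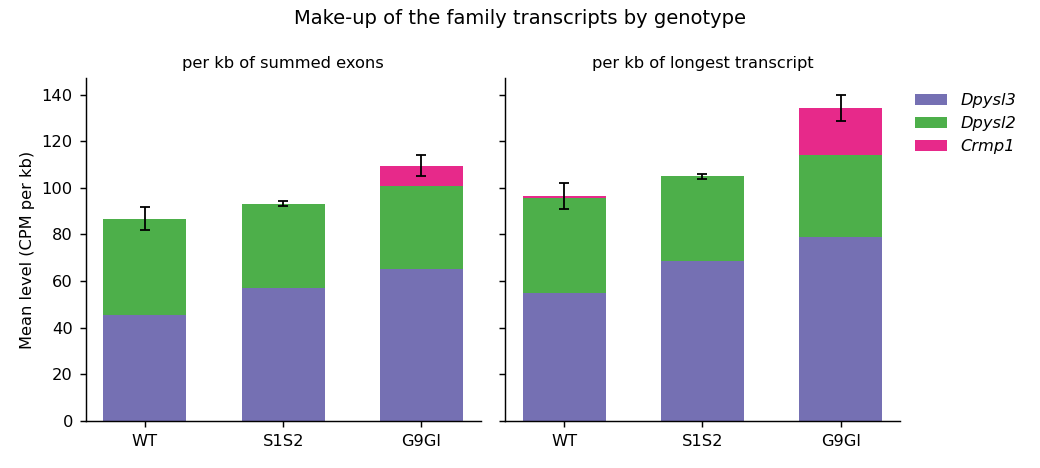
Mean level of the family by genotype in CPM per kb, stacked by member, divided by the summed exon length (left) or the length of the longest transcript (right), with bars for the SD of the family sum over 3 libraries. Crmp1 takes a visible part of the stack only in G9Gl cells, 7.91% on the left and 14.9% on the right, and the levels of Dpysl4 and Dpysl5 are too low to draw.

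The surroundings of Crmp1 on chromosome 5 were examined next. Within 500 kb, 17 other genes are annotated and 6 were tested, of which 0 were called in S1S2 against WT, 1 in G9Gl against WT and 1 between the mutants, beside 9.0%, 10.2% and 13.1% of all genes. Regardless of size, 4, 3 and 5 of the 6 met the adjusted p limit of 0.01 in the 3 comparisons, where 37.9%, 35.0% and 42.6% of all genes did, and 5 had an unadjusted p under 0.05 in each, where 54.6%, 52.4% and 57.8% of all genes did. The called gene was Man2b2, which encodes a lysosomal alpha-mannosidase and lies 411 kb away. Its level was 14.5 ± 0.888 CPM in WT, 9.30 ± 1.11 in S1S2 and 38.8 ± 1.44 in G9Gl cells (SD, n = 3). Man2b2 rose in G9Gl cells (log2 fold change 1.42, adjusted p = 4.97e-11), and its value of -0.64 in S1S2 cells (adjusted p = 9.96e-06) did not reach 2-fold. Evc, a ciliary gene of Hedgehog signalling, overlaps the end of Crmp1 by 3036 bases on the opposite strand (37289098 to 37292133). It was at 55.5 ± 0.367 CPM in WT, 46.2 ± 2.39 in S1S2 and 55.1 ± 3.17 in G9Gl cells, with log2 fold changes of -0.27 (adjusted p = 6.08e-04) and -0.01 (adjusted p = 0.906) against WT. The annotated exons of Crmp1 and Evc share 0 bases. Whether the counting used strand was not stated, so unspliced reads in the overlap cannot be assigned with certainty. The median log2 fold change against WT over the 6 neighbours was -0.09 for S1S2 and 0.21 for G9Gl, where the median of all genes tested was -0.003 and -0.007.

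**Figure D3:**
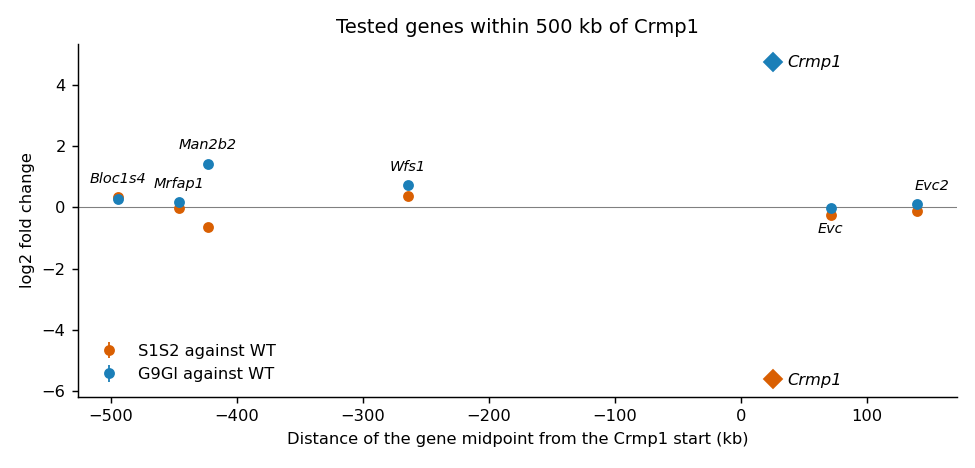
Log2 fold change against WT of Crmp1 (diamonds) and of the 6 tested genes within 500 kb of it (circles), by the distance in kb of the middle of each gene from the start of Crmp1. Error bars are SE and are smaller than most symbols, and Crmp1 at -5.60 and 4.74 stands outside the range of its neighbours, which runs from -0.64 to 1.42.

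The regions around the other members were read in the same way, beside shares of 9.0%, 10.2% and 13.1% called among all genes in the 3 comparisons (S1S2 and G9Gl against WT, then G9Gl against S1S2). Of the 6 tested genes within 500 kb of Dpysl2, 3 were called in S1S2 against WT, 1 higher and 2 lower. In G9Gl cells 1 of them was called higher against WT and 1 against S1S2. The gene called higher against WT was Stmn4 in both mutants, which passed the filter on low counts only through the mutant libraries (0 to 6 counts in WT), so its calls are not support for a difference from the shares above. Near Dpysl3 only 1 gene was tested, which was called higher in G9Gl cells than in WT (1.20) and S1S2 cells (1.76), and had -0.56 in S1S2 against WT. Near Dpysl4, edgeR called 0 of 6 genes in every comparison, although 4 in S1S2 and 3 in G9Gl against WT and 1 between the mutants had an unadjusted p under 0.05 (54.6%, 52.4% and 57.8% of all genes). Near Dpysl5, 1 of 29 was called, lower in G9Gl than in WT and S1S2 cells.

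Genes with a pattern like that of Crmp1 were sought over the 9 libraries by the root mean square difference of log2 CPM after each gene was centred on its own mean. The 5 nearest genes were Unc5c (0.80), Tspan6 (0.80), Platr14 (0.90), Il1rn (0.91) and Mrvi1 (0.91). Unc5c, which encodes a receptor for the axon guidance protein netrin-1, was at 2.00 ± 0.216 CPM in WT, 0.259 ± 0.0350 in S1S2 and 56.0 ± 0.657 in G9Gl cells (SD, n = 3). Tspan6, a tetraspanin gene, was at 1.81, 0.0607 and 22.9 CPM, and 2 of its 3 S1S2 libraries had 0 counts. Il1rn, which encodes the interleukin-1 receptor antagonist, was at 11.4, 0.828 and 106 CPM. Platr14, a long non-coding RNA gene, had 0.547, 0.0556 and 27.1 CPM, and Mrvi1, which encodes a target of cGMP signalling, had 1.35, 0.238 and 59.1 CPM. All 5 share the order S1S2, WT, G9Gl with Crmp1 because that order was what the measure looked for, and none lies on chromosome 5. For Dpysl2 the nearest gene was Tnrc6b (0.03) and for Dpysl3 it was Usp54 (0.03), smaller differences that go with their smaller range.

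**Figure D4:**
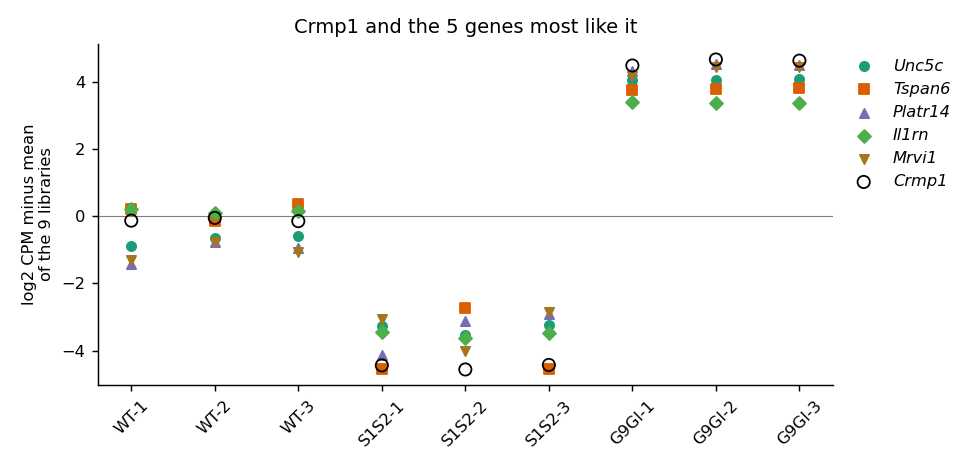
Log2 CPM of Crmp1 (open circles) and of the 5 genes nearest to it in each of the 9 libraries, minus the mean of each gene over the 9 libraries. Crmp1 spans the widest range, from -4.56 in an S1S2 library to 4.66 in a G9Gl library, and all 6 genes lie lowest in S1S2 and highest in G9Gl cells.

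Genes that act with the CRMP family were followed in 5 lists of 51 genes in all, and calls among them went in both directions. Of semaphorin 3A and its receptor subunits, 7 of 8 genes were tested. In S1S2 against WT, 1 was called higher and 1 lower, where 4.66% and 4.34% of all genes were. In G9Gl against WT, 1 was called higher and 0 lower (6.77% and 3.40% of all genes), and between the mutants 2 were higher and 0 lower (7.97% and 5.08%). The median log2 fold changes were 0.63, 0.17 and -0.14, where the medians of all genes tested lay between -0.007 and 0.0002. Sema3a, the ligand, was at 269 ± 7.93 CPM in WT and fell to 95.4 ± 4.14 CPM in S1S2 cells (log2 fold change -1.50, adjusted p = 2.65e-14). In G9Gl cells it was at 272 ± 3.31 CPM (0.02, adjusted p = 0.791). L1cam, a cell adhesion molecule that associates with neuropilin-1, rose in both. It was at 0.895 ± 0.301 CPM in WT, 2.22 ± 0.252 in S1S2 (1.31, adjusted p = 5.57e-05) and 20.2 ± 0.683 CPM in G9Gl cells (4.49, adjusted p = 1.15e-13). The receptors Nrp1, Nrp2 and Plxna1, each above 100 CPM in at least 1 genotype, did not pass 2-fold. The largest of their differences was 0.82 for Nrp2 in S1S2 cells (adjusted p = 2.92e-09). Plxna2 had 0.94 in S1S2 cells and passed the threshold without WT replicate 2 and after removal of chromosome medians. Plxna4 had 0 counts in WT and S1S2 libraries and 6 to 11 in G9Gl libraries, at least 2.85-fold above the floor of 3 counts per WT library, and was not tested.

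The 14 kinase genes, which hold the kinases that phosphorylate CRMP proteins and the activators of Cdk5, were all tested. In S1S2 against WT 1 was called higher and 1 lower, in G9Gl against WT 2 were higher and 1 lower, and between the mutants 2 were higher and 1 lower, with medians of -0.03, 0.12 and 0.12. These are 2, 3 and 3 calls in either direction among 14 genes, beside 9.0%, 10.2% and 13.1% of all genes. Camk2b rose in both, from 1.72 ± 0.545 CPM to 5.33 ± 0.907 in S1S2 (1.64, adjusted p = 1.92e-06) and 6.68 ± 0.408 in G9Gl cells (1.96, adjusted p = 1.15e-07). Fes, a tyrosine kinase of the semaphorin pathway, fell in S1S2 cells from 6.22 ± 0.904 to 1.79 ± 0.328 CPM (-1.78, adjusted p = 7.09e-08). Camk2a was lower in G9Gl cells, at 0.321 ± 0.103 against 1.23 ± 0.156 CPM in WT (-1.92). Only 1 G9Gl library reached the filter on low counts, so this is a description with no test. Cdk5r2, which encodes the p39 activator of Cdk5, had 0 to 1 counts in WT libraries and 17 to 18 in G9Gl libraries, a ratio of 56.1 with an exact interval of 9.63 to 2257. It is one of the 2 genes called higher in G9Gl against WT and between the mutants, and it passed the filter on low counts only through the G9Gl libraries. The abundant kinases did not pass 2-fold in any comparison. Gsk3b was at 171, 152 and 150 CPM in WT, S1S2 and G9Gl cells. Rock1 was at 140, 147 and 137 CPM and Rock2 at 288, 304 and 323 CPM. Camk2d was at 134, 176 and 132 CPM and Dyrk2, which primes CRMP proteins for Gsk3, at 86.8, 116 and 116 CPM.

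Among the 16 binding partners, all tested, 1 was called higher and 1 lower in S1S2 against WT, 3 higher and 1 lower in G9Gl against WT, and 2 higher and 1 lower between the mutants, with medians of 0.06, 0.22 and 0.21. The 2, 4 and 3 calls among 16 genes stand beside 9.0%, 10.2% and 13.1% of all genes. Cacna1b, the pore subunit of the N-type calcium channel, fell in one mutant and rose in the other. Its level was 7.10 ± 0.464 CPM in WT, 2.34 ± 0.236 in S1S2 (-1.61, adjusted p = 5.47e-09) and 22.4 ± 0.939 in G9Gl cells (1.65, adjusted p = 4.26e-11), the same order of genotypes as Crmp1. Enah, an actin regulator of the Ena/VASP family, fell in G9Gl cells from 87.2 ± 0.186 to 17.6 ± 0.678 CPM (-2.31, adjusted p = 1.69e-16), whereas its relatives Evl and Vasp had -0.01 (adjusted p = 0.864) and 0.26 (adjusted p = 2.27e-04). The kinesin-1 heavy chain gene Kif5c rose in S1S2 (1.40, adjusted p = 4.34e-09) and G9Gl cells (1.85, adjusted p = 4.55e-11), from 4.93 ± 0.110 to 12.9 ± 1.32 and 17.7 ± 1.23 CPM. Kif5a rose in G9Gl cells, from 0.640 ± 0.196 to 2.95 ± 0.398 CPM (2.20, adjusted p = 9.89e-07). Kif5b, the heavy chain gene used by most cells, was far more abundant, at 387, 394 and 434 CPM, and did not pass 2-fold. The tubulin genes did not pass 2-fold, with Tubb5 at 1443, 1604 and 1408 CPM, Tuba1a at 469, 588 and 405 CPM and Tubb2b at 61.6, 60.9 and 108 CPM. Flna, an actin crosslinker, was at 2365, 2468 and 3713 CPM (0.65 in G9Gl cells, adjusted p = 3.57e-09). Klc1 and Cyfip1 were also above 100 CPM in at least 1 genotype and did not pass 2-fold.

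**Figure D5:**
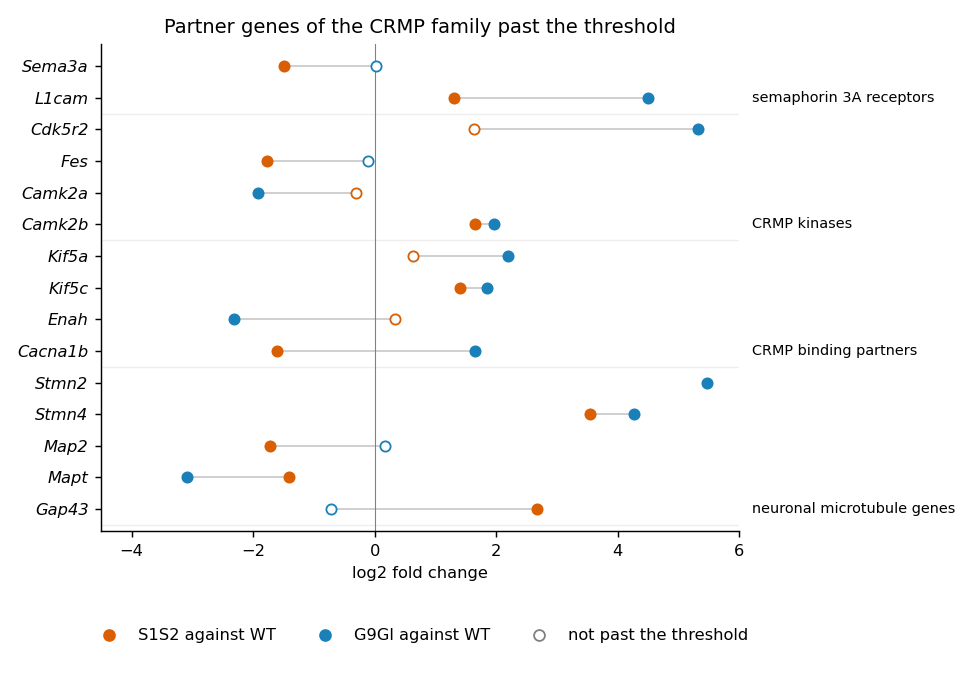
Log2 fold change in S1S2 and G9Gl against WT of the list genes called in at least 1 comparison, grouped by list, with filled symbols past the threshold and open symbols not past it. Cacna1b lies on opposite sides of 0 in the 2 mutants at -1.61 and 1.65, and the S1S2 symbol of Stmn2 is left out because all S1S2 libraries had 0 counts.

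Of 10 neuronal microtubule and growth cone genes, 8 were tested. In S1S2 against WT 2 were called higher and 2 lower, in G9Gl against WT 2 higher and 1 lower, and between the mutants 2 higher and 1 lower, with medians of 0.13, -0.02 and -0.08. The shares of all genes called were 9.0%, 10.2% and 13.1%. Of the called genes, Stmn4 passed the filter on low counts only through the mutants, Stmn2 only through G9Gl, Mapt through WT and part of the S1S2 libraries, and Map2 through WT and G9Gl, so the counts of this list rest partly on genes that passed through the groups where they are high. The count of 4 in S1S2 against WT was 2 without WT replicate 3 or without S1S2 replicate 1, because Map2 and Mapt then missed the threshold. Between the mutants, Map2 lost its call without S1S2 replicate 1 or 2. Mapt (-1.68 between the mutants) was called without S1S2 replicate 1 or with no filter. Gap43, a growth cone protein, rose in S1S2 cells from 9.46 ± 0.289 to 60.5 ± 1.29 CPM (2.68, adjusted p = 3.72e-15) and was at 5.77 ± 0.564 CPM in G9Gl cells (-0.71, adjusted p = 1.5e-06), below the fold limit. The stathmins bind tubulin dimers. Stmn4 was at 0.128 ± 0.111 CPM in WT, 1.55 ± 0.266 in S1S2 (3.54) and 2.54 ± 0.635 CPM in G9Gl cells (4.26). Given how Stmn4 passed the filter, these values are a description with no test. Stmn2 had 1 to 2 counts in WT, 0 in S1S2 and 70 to 81 in G9Gl libraries. Its ratio of G9Gl to WT was 47.9 (exact interval 20.2 to 149), and the G9Gl level was at least 19.7-fold higher than in S1S2, measured against the floor of 3 counts per library. Mapt, which encodes tau, was lower in both mutants, also a description with no test. It was at 1.20 ± 0.167 CPM in WT, 0.440 ± 0.228 in S1S2 (-1.41) and 0.137 ± 0.0566 in G9Gl cells (-3.09). Map2, likewise described with no test, was lower in S1S2 cells, at 0.244 ± 0.0759 against 0.814 ± 0.474 CPM in WT (-1.73). Its call was also lost without S1S2 replicate 2 and after thinning all libraries to 1 depth. Map1b, the abundant microtubule-associated protein gene of the list, was at 400, 481 and 511 CPM and did not pass 2-fold. Dcx and Stmn3 had at most 2 counts in any library. The 3 genes of pyrimidine breakdown, Dpyd, Dpys and Upb1, had at most 4 counts in any library and were not tested, so the enzymes to which the family is related were at or near the limit of detection in every genotype.

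Markers of other cell types were read beside these values, since the family and many of its partners are known from neurons. The neuron markers were low in all libraries, at 22 counts or fewer per gene, with a summed level of 0.580 to 0.826 CPM in WT, 0.552 to 1.02 in S1S2 and 1.05 to 1.58 in G9Gl libraries. Of the 10 markers, 5 had at most 3 counts in every library, and Rbfox3, Nefm and Gad1 were at 0 throughout. Snap25 had 0 counts in WT and S1S2 and 10 to 22 in G9Gl libraries. Syt1 had 0 counts in WT and S1S2 and 1 to 6 in G9Gl libraries. Nefl had 0 to 3 counts in WT, 0 to 2 in S1S2 and 5 to 19 in G9Gl libraries. Syp had 2 to 13, 3 to 8 and 1 to 6 counts and Slc17a7 had 5 to 14, 8 to 16 and 3 to 6, so these 2 markers were not higher in G9Gl libraries. The glia markers summed to 3.83 to 4.22, 3.20 to 3.79 and 2.48 to 3.26 CPM in WT, S1S2 and G9Gl libraries. Of 6 neural progenitor markers only Nes was tested, at 311, 762 and 530 CPM. Nes rose in S1S2 cells (1.29, adjusted p = 6.18e-10) and had 0.77 in G9Gl cells (adjusted p = 3.72e-07), below the fold limit. Pax6 had 8 to 18 counts in WT, 0 to 2 in S1S2 and 0 to 1 in G9Gl libraries, the opposite direction, and the other 4 had at most 1 count in any library. Of the 10 fibroblast markers all were expressed in every genotype, and their summed level was 9917 to 11414 CPM in WT, 7411 to 7478 in S1S2 and 7928 to 8778 in G9Gl libraries. Calls among them were 0 higher and 6 lower for S1S2 against WT, where 4.66% and 4.34% of all genes were called. For G9Gl against WT they were 2 higher and 2 lower (6.77% and 3.40% of all genes), and between the mutants 5 higher and 0 lower (7.97% and 5.08%). Col3a1 fell in S1S2 cells from 1527 to 190.1 CPM (-3.01, adjusted p = 5.74e-17), and Col1a2 from 2395 to 395.3 CPM (-2.60, adjusted p = 7.51e-17). Pdgfra and Pdgfrb fell in both mutants. The genotype order of Crmp1 was also seen in the fibroblast markers Thy1, a surface glycoprotein, and Postn, a matrix protein. Thy1 was at 4.98 ± 0.537 CPM in WT, 2.05 ± 0.272 in S1S2 (-1.29, adjusted p = 5.75e-07) and 38.3 ± 2.48 in G9Gl cells (2.94, adjusted p = 3.7e-14). Postn was at 51.6 ± 2.80 CPM in WT, 7.22 ± 0.997 in S1S2 (-2.82, adjusted p = 2.06e-14) and 126 ± 5.67 in G9Gl cells (1.29, adjusted p = 1.05e-11). S100a4 had the same order, at 68.3 ± 2.13, 36.1 ± 2.86 and 82.9 ± 2.66 CPM with no overlap, but its differences from WT were below 2-fold (-0.92 and 0.28). In each pair of genotypes, 52.8% to 60.8% of all genes tested had no overlap. Col1a1, Fn1 and Vim stayed at 1250.4 CPM or more in all genotypes. Among markers of further lineages, Krt8 rose in S1S2 cells (0.139 to 4.68 CPM), and Cdh5 and Acta1 rose in G9Gl cells. Krt8 passed the filter on low counts only through the S1S2 libraries and Cdh5 only through the G9Gl libraries. The part of these marker differences in the Crmp1 values was not tested.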

How the data were processed

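RNA of 9 MEF libraries was sequenced by the study in paired-end reads of 75 bp from stranded libraries of total RNA. The authors trimmed the reads, aligned them to GRCm38 with STAR 2.5.2b and counted genes with TEtranscripts, and the deposited values are raw counts per Ensembl gene. The annotation release and the use of strand in counting are not given in the sources used here. Identifiers were matched without version to GENCODE M21 (47224 of 47937 genes). The authors' DESeq2 step was not reused.

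Genotypes were compared in edgeR 4.0.16 (R 4.3.3) by its quasi-likelihood test, glmQLFTest, after filterByExpr and TMM normalization (factors 0.981 to 1.03), in a single fit of 9 libraries with 1 coefficient per genotype and a Benjamini-Hochberg adjustment over the 15540 genes tested. The common biological coefficient of variation was 5.36%. SE were computed from the replicate SDs of log2 CPM (prior count 2), and count ratios carry exact 95% intervals. The reads carry no molecular identifiers and may repeat molecules, so intervals and floors cover counting error only. Replicates differed by more than counting noise (chi-square per degree of freedom 2.57 to 23.5), so no library was treated as a duplicate. The fitting code was tested on simulated data. Upstream windows are from RefSeq (GRCm38.p6), and the 713 genes without a match in GENCODE M21 were kept in the fit by identifier.

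The members and gene lists were chosen with earlier results of these data known. A further gene of the binding partner list is not reported here, and the counts of that list were recomputed without it after the results had been seen. Named list genes are those called in a comparison or with a mean of at least 100 CPM in a genotype. Neighbours lie within 500 kb, and the 5 nearest genes in pattern were named for Crmp1. Alternatives were DESeq2 1.42.0, edgeR with DESeq2 size factors or without TMM, all genes unfiltered, at least 10 counts in every library, a limit of 0.05 on the adjusted p with no fold limit, only the libraries compared, the replicate block, thinning to the smallest library and leaving out each library. Removal of chromosome medians and the longest transcript length were added after the data had been seen.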

Additional observations from a re-analysis of the deposited data

Results flagged for a closer look

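Crmp1 stood out because the mutants differed from WT in opposite directions: each S1S2 library lay below every WT library and each G9Gl library above every WT library. The log2 difference of G9Gl minus S1S2 was 10.34, with mean levels of 61.0 and 0.0431 CPM. Crmp1 was chosen for this pattern, so the difference is a description with no test.

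Cacna1b, Thy1 and Postn were noted because they were also called in opposite directions against WT, lower in S1S2 and higher in G9Gl cells. Of the 15540 genes tested, 236 (1.52%) were called in opposite directions, and 148 (0.952%) in this order. Cacna1b, Thy1 and Postn were picked for this pattern, so the values that follow are a description with no test. For Cacna1b the log2 fold change of G9Gl minus S1S2 was 3.27, with mean levels of 22.4 and 2.34 CPM beside 7.10 CPM in WT, and the 3 libraries of each genotype did not overlap with those of the others. In each pair of genotypes, 52.8% to 60.8% of all genes tested did not overlap. The log2 fold change of G9Gl minus S1S2 was 4.23 for Thy1 and 4.12 for Postn, both fibroblast markers, with mean levels of 38.3 and 2.05 CPM and of 126 and 7.22 CPM.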

How the results depend on the processing

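Dpysl2 and Dpysl3 kept their direction in 106 of 108 alternative values, and 0 of these passed the 2-fold limit with an adjusted p of at most 0.01. The exceptions were Dpysl2 between the mutants, which was 0.0017 without G9Gl replicate 1 and 0.033 with chromosome medians removed, against -0.03, and its range over single libraries left out was -0.080 to 0.0017. Crmp1 had -5.74 (S1S2 against WT) and 10.49 (G9Gl against S1S2) with DESeq2, and -5.94 and 10.68 after thinning. Without 1 library each, Crmp1 ranged from -5.67 to -5.49, from 4.70 to 4.79 and from 10.23 to 10.40 in the 3 comparisons. With at least 10 counts in every library, 728, 682 and 962 genes and 0, 0 and 0 family members were called, since that filter removes Crmp1. With a limit of 0.05 on the adjusted p and no fold limit, 7599, 7138 and 8288 genes and 3, 3 and 2 family members passed. With 1 library left out, 1296 to 1458, 1515 to 1654 and 1981 to 2166 genes were called, and among the family only Crmp1, which was chosen for its level, in every case. Dpysl4 and Dpysl5 were removed by the filter on low counts, and only Dpysl5 gave values without it, 1.19, 1.56 and 0.36. Of 270 list counts, 8 moved by over 1.5 times: 5 of these with at least 10 counts in every library, 2 with single libraries left out and 1 without a filter, where Plxna4 was called in G9Gl cells.

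The labels number the replicates, but same-numbered libraries did not deviate together (correlations of -0.069 to 0.124), so the numbers were not taken as pairs. With the replicate block, 1383, 1568 and 2022 genes were called, Dpysl2 had -0.17 and -0.21 and Dpysl3 0.32 and 0.52 against WT, and no member changed its call.

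Depth limited Dpysl4, Dpysl5 and Crmp1 in S1S2 cells. Each genotype is 1 clone.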
